A study of Mus musculus with 4 samples.

Results

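Interferon gamma, encoded by Ifng, was followed with 8 of its GTPase targets and with the chemokine gene Cxcl9 in SCC7 tumours. The 10 genes were chosen by symbol, not by a threshold on their values, and all 10 were found among the 17574 genes measured. The GTPase genes were Gbp2, Gbp3, Gbp5, Gbp7 and Gbp9 of the guanylate-binding protein (GBP) family and Irgm1, Irgm2 and Igtp of the immunity-related GTPase (IRG) family.

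Interferon gamma is a cytokine that T cells and natural killer cells secrete. It binds a receptor of the subunits Ifngr1 and Ifngr2, which signals through the kinases Jak1 and Jak2 to genes with a DNA element called GAS. The signal also raises Irf1, a factor that binds a second element, the ISRE, which type I interferons use as well. In mouse cells the induced GBP and IRG proteins gather on membranes around intracellular microbes, and the chemokine Cxcl9 attracts activated T cells and natural killer cells through the receptor Cxcr3.

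SCC7 is a mouse head and neck squamous carcinoma line, here injected under the dorsal skin of wild-type C3H/HeN mice, so the host's immune cells are part of each tumour. The anti-CD71 group (2 libraries) received an antibody against the transferrin receptor on days 6 and 9, and the control group (2 libraries) is labelled only as control, with no antibody named. All tumours were harvested on day 10, and bulk RNA sequencing gave TPM, a transcript abundance per length scaled to a fixed total per library. The labels do not say whether the libraries of a group came from separate animals, so p-values measure only the spread between these libraries.

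The table used here for anti-CD71 replicate 1 ends early and lists 13586 of 59881 transcripts, and a transcript beyond its end is missing, not 0. Gbp2 and Irgm2 are listed there in full. Of the other 8 members, 6 have no transcript there, and the transcripts of Gbp3 and Irgm1 that are listed hold 0.27% and 0.02% of those genes' TPM. One comparison therefore set both anti-CD71 libraries against both controls over 1563 genes, and another set anti-CD71 replicate 2 alone against both controls over 11982 genes. The second takes the spread of its single treated library to equal that of the controls. The SD of the log2 difference over the 1563 genes was 0.294 between the anti-CD71 libraries and 0.222 between the controls. For the members listed in full the gap was wider. Gbp2 had an SD of 41.31 TPM in the anti-CD71 libraries, against 6.68 TPM in the controls, and Irgm2 18.71 against 5.37 TPM. The SE and adjusted p of the second comparison do not include such a spread. How far the other members spread between the anti-CD71 libraries is not known. Both ran limma on log2(TPM + 1), a scale that understates the change of low genes, and called a gene at a Benjamini-Hochberg adjusted p under 0.05.

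Tissue markers differ between the anti-CD71 libraries and from the controls. The summed TPM of 9 epidermis and hair genes was 190.11 in anti-CD71 replicate 2, against 0.06 and 0.04 in the controls, and the hair keratin gene Krt25 was at 0 in anti-CD71 replicate 1 and at 60.54 TPM in replicate 2. The tumour keratins Krt8 and Krt18 belong to a squamous list that summed to 2277.59 TPM in anti-CD71 replicate 2, against 1794.98 and 1888.34 TPM in the controls. The squamous keratin gene Krt5 was at 31.4 TPM in anti-CD71 replicate 2 and at 0 in both controls, and Krt14 was at 36.37 TPM, against 0.09 and 0.1 TPM, so these defining markers are absent or nearly so in the controls. Macrophage markers summed to 1790.2 TPM in anti-CD71 replicate 2, against 3504.61 and 4335.52 TPM in the controls. The macrophage genes listed for both anti-CD71 libraries were close there, Csf1r at 69.38 and 66.83 TPM, against 125.77 and 156.93 TPM in the controls. In these bulk samples, fewer cells of a type and less RNA per cell cannot be told apart.

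The promoters of these genes are shown because they carry the letters of the elements described above. A search for the GAS letters TTCNNNGAA and the ISRE letters (GAAA, any 2 bases, GAAA) covered both strands of RefSeq promoters (GRCm38.p6) that run from 250 bases before to 50 bases from the gene start onward. Of the 9 members with a promoter entry, 7 held the ISRE letters and 5 the GAS letters, against 3.99% and 9.55% of all 27025 genes with one (3.44% and 8.3% of the 32851 promoters). In the windows below, written 5′ to 3′ along the gene, capitals mark the matched letters. The first is from Ifng itself, which held the GAS letters alone, at chr10:118440796-118440831 (+).
Ifng: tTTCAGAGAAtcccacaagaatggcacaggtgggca
Gbp2, Gbp3, Gbp5 and Gbp7 lie in a cluster on chromosome 3, and each held the ISRE letters, on the strand opposite to the gene. Their windows are chr3:142620579-142620638 (+), chr3:142559974-142560039 (+), chr3:142496744-142496803 (+) and chr3:142530258-142530317 (+). In Gbp3 a pair of matches overlap.
Gbp2: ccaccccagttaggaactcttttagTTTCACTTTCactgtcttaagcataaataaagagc
Gbp3: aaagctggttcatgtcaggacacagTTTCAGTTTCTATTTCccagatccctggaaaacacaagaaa
Gbp5: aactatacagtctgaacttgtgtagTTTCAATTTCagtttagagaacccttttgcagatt
Gbp7: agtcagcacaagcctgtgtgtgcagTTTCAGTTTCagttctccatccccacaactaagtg
The IRG genes on chromosome 11 held the ISRE letters on the strand of the gene. Their windows are chr11:48871410-48871475 (-), chr11:58214888-58214947 (+) and chr11:58199497-58199556 (+), and in Irgm1 a pair of matches overlap.
Irgm1: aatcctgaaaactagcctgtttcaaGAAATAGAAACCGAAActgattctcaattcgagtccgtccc
Irgm2: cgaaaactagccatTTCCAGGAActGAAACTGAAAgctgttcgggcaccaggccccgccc
Igtp: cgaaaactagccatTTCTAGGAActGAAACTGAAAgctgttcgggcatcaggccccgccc

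The windows of Irgm2 and Igtp were identical at 58 of 60 bases, with a GAS match just before the ISRE match in both. Gbp5 held GAS letters at -245 and -52 and Gbp7 at -106 and -87, counted from the start to the first base of the match, all outside the windows printed. The start is that of the RefSeq promoter entry, which for Gbp3 is base 142560044, inside the gene as annotated, and for the others printed is the gene's own first base. Cxcl9 held neither motif in its 300 bases. Among the other GBP and IRG genes, 4 of 7 with a promoter entry held the ISRE letters, and among type I interferon responsive genes 9 of 17 did. A match describes letters and is not a measured binding site.

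**Figure D1:**
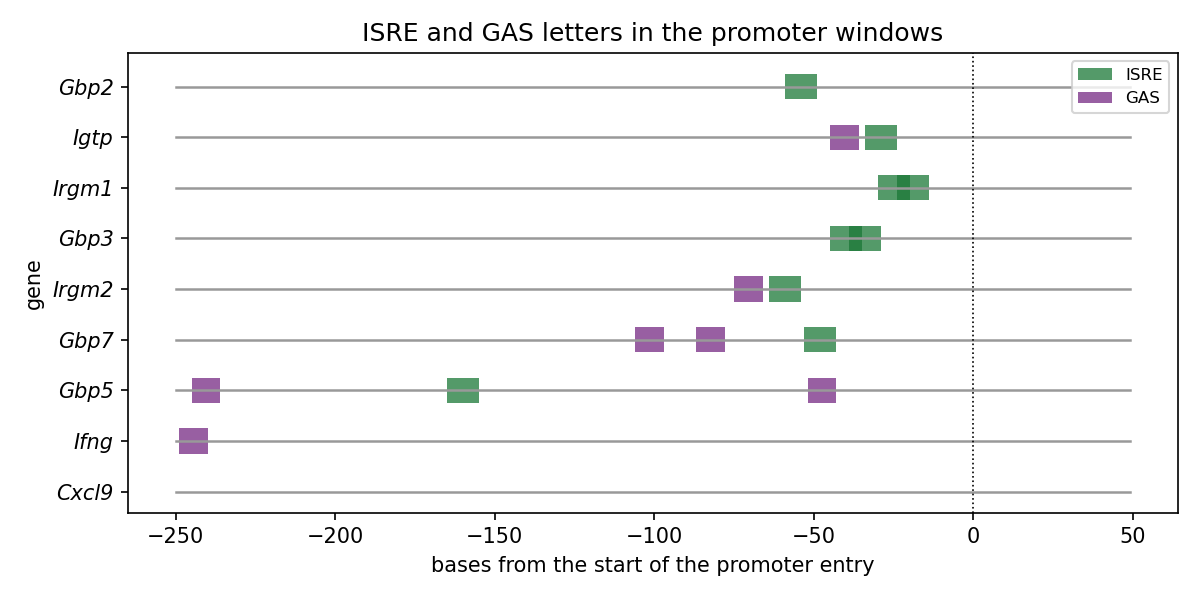
Positions of ISRE letters (green) and GAS letters (purple) along the promoter of each of the 9 members with an entry, in bases from the start of the promoter entry on the x axis, with genes on the y axis. The ISRE matches of Gbp2, Gbp3, Gbp7 and the 3 IRG genes begin at -64 or nearer to the start, that of Gbp5 lies at -165, and Cxcl9 has no match.

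Ifng was the lowest member in every complete library. It lies at chr10:118441046-118445894. Its single transcript had 1.39 TPM in anti-CD71 replicate 2, against 0.73 and 0.93 TPM in the controls (0.83 ± 0.14, SD, n = 2). The treated library was above both controls, at 167.5% of their mean, and 39.5% of all genes tested over 3 libraries lay above both controls. Ifng reached 1 TPM in 1 library only, which is below the filter of 1 TPM in 2 libraries, so it was not tested. With looser filters its log2 change was 0.39 by limma (adjusted p = 0.249 where 1 library sufficed and 0.277 with no filter).

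The targets and Cxcl9 ran from 27.24 TPM (Gbp5) to 193.26 TPM (Gbp2) in the mean of the controls, and Gbp2 exceeded 96.1% of all genes there. TPM is per length, so these levels may be compared between genes. The order in the controls was Gbp2, Igtp, Irgm1, Gbp3, Cxcl9, Gbp9, Irgm2, Gbp7, Gbp5 and Ifng. Over the 3 complete libraries the ranges of Igtp and Irgm1 overlapped, as did those of Cxcl9 and Gbp9 and those of Gbp9 and Irgm2. All other neighbours kept the same order in all 3 libraries without overlap.

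**Figure D2:**
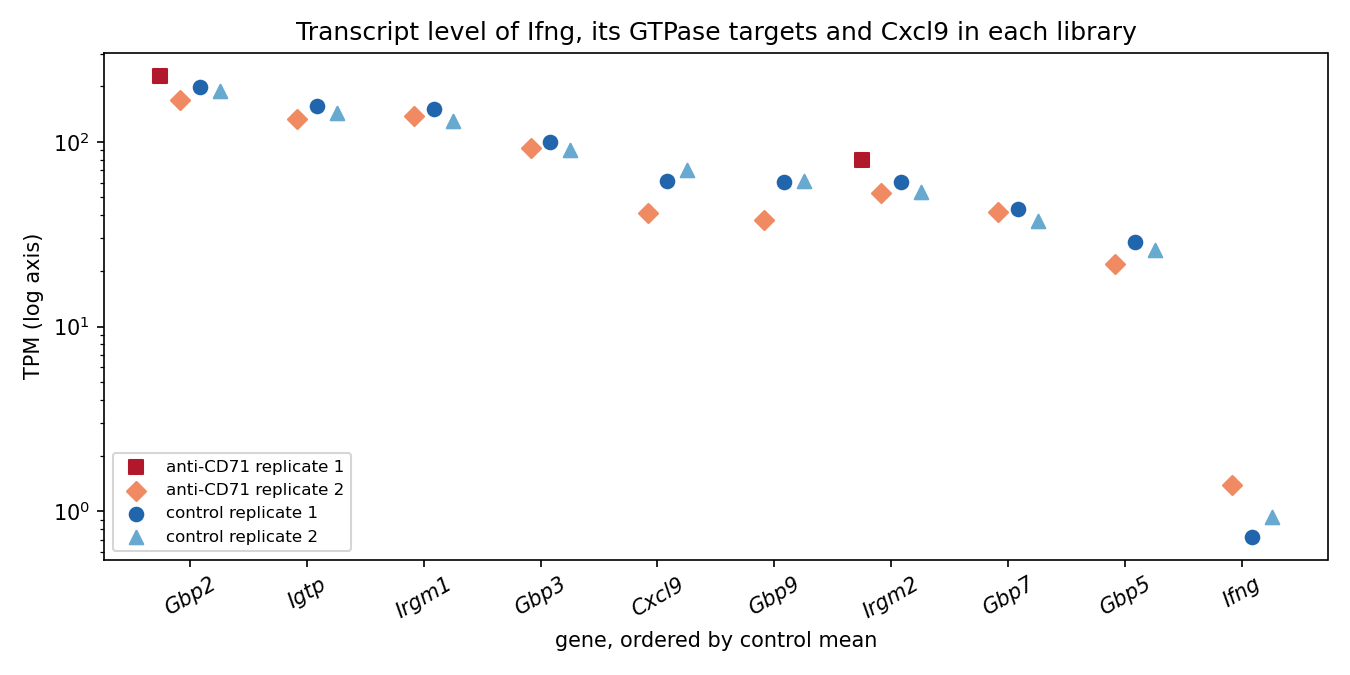
TPM of each member (y axis, log scale) in each library, with genes on the x axis in the order of their control mean. Squares and diamonds are anti-CD71 replicates 1 and 2, circles and triangles control replicates 1 and 2; squares stand only for Gbp2 and Irgm2, the members listed in full for anti-CD71 replicate 1, and there they are the highest point.

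Among the GBP genes, Gbp9 fell in anti-CD71 replicate 2, and the 4 on chromosome 3 did not pass the test. Gbp2, which limits Toxoplasma in mice, is the most abundant member and is listed for all libraries (chr3:142620663-142638008). It had 226.82 and 168.4 TPM in the anti-CD71 libraries, against 197.98 and 188.54 TPM in the controls. One anti-CD71 library was thus above both controls and the other below both. The means were 197.61 ± 41.31 TPM in anti-CD71 tumours and 193.26 ± 6.68 TPM in controls (SD, n = 2 each), with a log2 change of 0.02 (SE 0.14, limma adjusted p = 0.946). The value was 0.23 without anti-CD71 replicate 2 (adjusted p = 0.146) and turned to -0.20 without replicate 1 (adjusted p = 0.17) and to -0.02 without control replicate 2.

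Gbp3, of the chromosome 3 cluster (chr3:142560016-142573213), had 92.33 TPM in anti-CD71 replicate 2, against 99.71 and 90.68 TPM in the controls. The treated library lay between the controls, with a log2 change of -0.04 (SE 0.09, limma adjusted p = 0.807). Gbp7, which in mouse macrophages helps assemble the phagocyte oxidase (chr3:142530336-142550151), had 41.66 TPM in anti-CD71 replicate 2, against 43.12 and 37.16 TPM in the controls. It too lay between them (log2 change 0.06, SE 0.12, limma adjusted p = 0.797). Leaving out control replicate 1 turned the log2 change of Gbp3 to 0.03, and leaving out control replicate 2 turned that of Gbp7 to -0.05.

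Gbp5, which promotes assembly of the NLRP3 inflammasome (chr3:142496934-142522344), had 21.88 TPM in anti-CD71 replicate 2, against 28.68 and 25.8 TPM in the controls. The treated library was below both, but the log2 change of -0.30 did not pass (SE 0.11, limma adjusted p = 0.174).

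Gbp9 lies in the GBP cluster on chromosome 5 (chr5:105076464-105110357). It had 37.72 TPM in anti-CD71 replicate 2, against 60.62 and 61.3 TPM in the controls (60.96 ± 0.48, SD, n = 2). The treated library was at 61.9% of the control mean, the lowest share among the 10 members. The log2 change was -0.68 (SE 0.08, limma adjusted p = 0.0322). It was the single call among the 9 tested members, where 2.39% of all 11982 genes were called lower and 0.476% higher. Without the filter on low values, with 1 TPM needed in 1 library, and without the intensity trend, the adjusted p of Gbp9 was 0.125, 0.115 and 0.111, so the call ended under each. Anti-CD71 replicate 1 lists no transcript of Gbp9.

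All 3 RefSeq transcripts of Gbp9 were below both controls in anti-CD71 replicate 2. The gene's value is their sum, so they add no separate support for its fall. The main one, NM_172777, had 32.15 TPM in that library, against 50.15 and 51.65 TPM in the controls. It held 85.2% of the gene's TPM in anti-CD71 replicate 2, against 82.7% and 84.3% in the controls.

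The 3 IRG genes among the members encode the regulatory members of the family, which in mice keep the effector GTPases off the cell's own membranes, and none passed the test in anti-CD71 replicate 2. Irgm2 (chr11:58214977-58222783) had 79.18 and 52.72 TPM in the anti-CD71 libraries, against 60.89 and 53.29 TPM in the controls. As for Gbp2, anti-CD71 replicate 1 was above both controls and replicate 2 was just below both. The means were 65.95 ± 18.71 TPM in anti-CD71 tumours and 57.09 ± 5.37 TPM in controls (SD, n = 2 each), with a log2 change of 0.18 (SE 0.19, limma adjusted p = 0.582). Without anti-CD71 replicate 2 it was 0.47 (adjusted p = 0.0883), and without replicate 1 it turned to -0.11 (adjusted p = 0.57).

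Irgm1 (chr11:48865245-48871420) had 137.7 TPM in anti-CD71 replicate 2, against 150.49 and 130.29 TPM in the controls. The treated library lay between the controls, with a log2 change of -0.02 (SE 0.11, limma adjusted p = 0.909) that turned to 0.08 without control replicate 1. Within Irgm1, the transcript NM_008326 held 44.1% of the gene's TPM in anti-CD71 replicate 2, against 38.8% and 36.9% in the controls, and NM_001355757 held 51.7%, against 57.6% and 59.7%. These shares do not overlap between the groups, but the treated group is 1 library and they were not tested. A value outside both controls was common, as 42.5% of genes tested over 3 libraries lay below both controls and 39.5% above both. How often transcript shares lie outside both was not counted. The shares are parts of the same gene, so they are not separate observations.

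Igtp, also called Irgm3 (chr11:58199556-58207592), had 133.58 TPM in anti-CD71 replicate 2, against 156.58 and 143.34 TPM in the controls. The treated library was below both (log2 change -0.16, SE 0.09, limma adjusted p = 0.306). The gene is listed as a pair of copies with equal TPM, 66.79 each in anti-CD71 replicate 2, against 78.29 and 71.67 each in the controls, and the values above are their sum. Reads shared by such copies and by close relatives such as Gbp2 and Gbp2b may have been split by a program not given in the sources used here, so the division among them is uncertain.

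Cxcl9 came next to Gbp9 in its share of the control level. It lies at chr5:92321331-92328079 and had 41.31 TPM in anti-CD71 replicate 2, against 61.55 and 70.14 TPM in the controls (65.84 ± 6.07, SD, n = 2). The treated library was below both, at 62.7% of the control mean. The log2 change of -0.66 (SE 0.11) just missed the threshold (limma adjusted p = 0.0522), and it passed with median scaling (adjusted p = 0.0422). With no filter, with 1 TPM needed in 1 library and with no intensity trend its adjusted p was 0.231, 0.17 and 0.126. Cxcl10, another Cxcr3 ligand, had 67.26 TPM in anti-CD71 replicate 2, against 72.28 and 57.38 TPM in the controls, so the treated library lay between them (log2 change 0.06, adjusted p = 0.827). The receptor gene Cxcr3 was at 0.83 TPM in anti-CD71 replicate 2, against 0.96 and 1.95 TPM in the controls, and was too low to be tested.

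Over the members as a set, anti-CD71 replicate 2 lay below both controls for 6 of 10, between them for 3 and above both for Ifng alone. Among all genes tested over 3 libraries, 42.5% lay below both controls. Of the 9 tested members 8 had a log2 change below 0, with a median of -0.16, against 51.4% of all genes and a median of -0.01. By limma 1 was called lower and 0 higher; at an unadjusted p under 0.05 the numbers were 4 and 0, where 14% of all genes were lower and 10.7% higher at that p. Over 4 libraries 0 of the 2 tested members were called, and 0 had an unadjusted p under 0.05, where 0.832% of the 1563 genes were called higher and 3.45% lower.

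**Figure D3:**
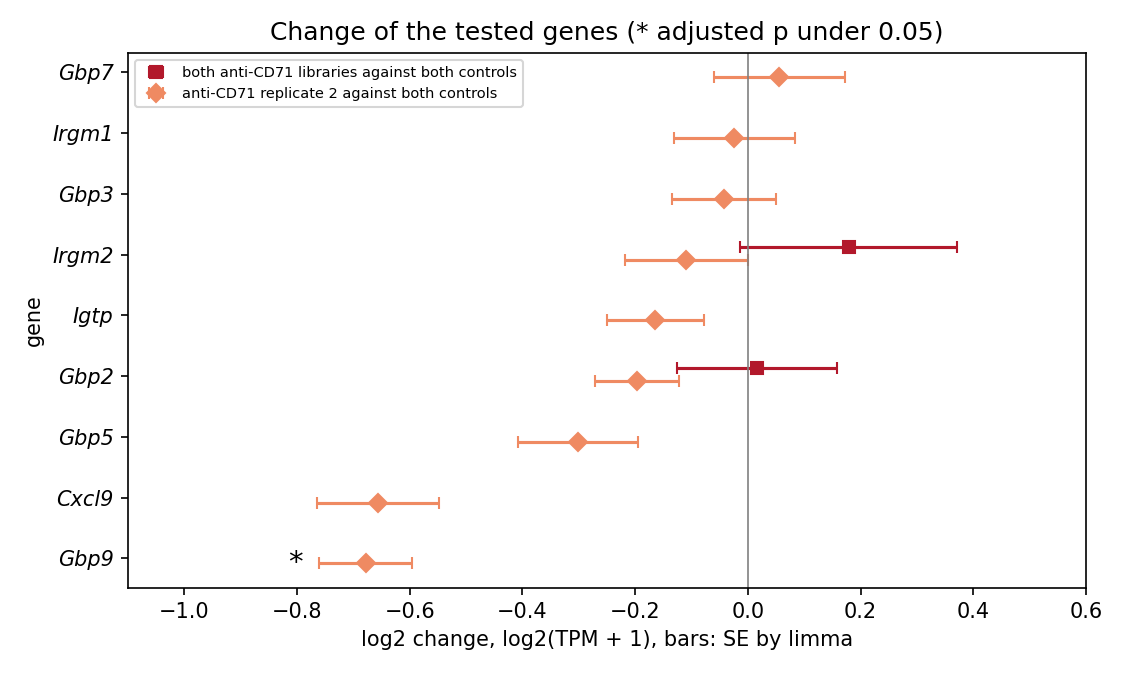
Log2 change of the 9 tested members on the x axis, anti-CD71 over control on log2(TPM + 1), with bars of 1 SE by limma. Diamonds compare anti-CD71 replicate 2 with both controls and squares, for Gbp2 and Irgm2, both anti-CD71 libraries with both controls; Gbp9 at -0.68 carries the asterisk of an adjusted p under 0.05, and the squares lie right of the diamonds of the same gene.

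The difference between the anti-CD71 libraries seen for Gbp2 and Irgm2 recurred in their relatives. A wider view took genes with at least 50% of their TPM on transcripts listed in all 4 files and compared those transcripts alone. It added 4 GBP and IRG genes, Gbp4, Gbp6, Gm4951 and Tgtp2. Listed Gbp4 transcripts held 50.04% of the gene's TPM. They summed to 31.2 and 22 TPM in the anti-CD71 libraries, against 22.9 and 23 TPM in the controls. The main one followed this order, with 28.65 and 18.48 TPM, against 18.99 and 20.67 TPM. A minor one did not, with 2.32 and 3.52 TPM in the anti-CD71 libraries, against 3.91 and 2.33 TPM in the controls. Tgtp2, an effector IRG of mice, is listed by a further copy of its transcript that held 50% of the gene's TPM. That copy had 47.83 and 32.79 TPM in the anti-CD71 libraries, against 33.49 and 34.35 TPM in the controls. As for Igtp, the division of reads between copies is uncertain. In the totals of both genes anti-CD71 replicate 1 stood highest and replicate 2 lowest.

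Gbp2 and Irgm2 prompted this view, so 4 of its 6 GBP and IRG genes are further ones. In all 4 further genes anti-CD71 replicate 1 was above the other 3 libraries, an order that 14.3% of 2523 genes showed. In the same 4 genes replicate 2 was below both controls, as in 40.1% of genes. Over all 6, Gbp2 and Irgm2 included, the median log2 difference from the control mean was 0.45 in anti-CD71 replicate 1 and -0.15 in replicate 2. Over all genes it was -0.06 and 0.00. By limma over the 4 libraries 0 of the 6 were called, and the largest log2 change was 0.22 (Tgtp2), where 0.515% of the 2523 genes were called higher and 2.3% lower. With any listed transcript the order in anti-CD71 replicate 1 held for 4 of 6 further genes, and for 16.7% of all genes. The exceptions were Ifi47 and Gm4070, whose listed transcripts held only 7.25% and 22.41% of the gene's TPM. Those of Ifi47 had 10.6 and 4.75 TPM in the anti-CD71 libraries, against 12.2 and 10.08 TPM in the controls. Those of Gm4070 had 3.84 and 3.74 TPM in the anti-CD71 libraries, against 4.02 and 4.15 TPM in the controls. The GBP and IRG genes are relatives that may share reads, so they are not independent observations.

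Genes that answer to type I interferon were also highest in anti-CD71 replicate 1. Listed transcripts of Ifit3, an antiviral gene, had 331.26 and 107.25 TPM in the anti-CD71 libraries, against 107.34 and 93.69 TPM in the controls. All 4 type I interferon responsive genes in this view (Ifih1, Ifit3, Oas1a and Rtp4) had their highest value in anti-CD71 replicate 1, with a median log2 difference of 1.04 there and 0.04 in replicate 2. Usp18, which limits type I interferon signalling, had 123.14 and 43.77 TPM in the anti-CD71 libraries, against 46.29 and 35.63 TPM in the controls. None of these 5 genes was called over 4 libraries (limma adjusted p between 0.282 and 0.601). Usp18 stands in the receptor and signalling list, where 1 of 3 genes in this view was highest in anti-CD71 replicate 1. The others there were Irf2 and Jak1, with 97.54% and 60.9% of their TPM listed. In anti-CD71 replicate 1 the listed transcripts of Irf2 had 27.78 TPM, against 31.68 and 34.01 TPM in the controls. Those of Jak1 had 41.19 TPM there, against 42.23 and 45.8 TPM in the controls. Of all 2523 genes in this view, 14.3% were highest in anti-CD71 replicate 1.

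Nos2, the inducible nitric oxide synthase that interferon gamma raises in macrophages, was higher in both anti-CD71 libraries. Its listed transcripts had 14.84 and 9.34 TPM there, against 2.49 and 0.98 TPM in the controls, with no overlap (log2 change 2.28, SE 0.33, limma adjusted p = 0.0411 in this wider view). That call ended with any listed transcript (adjusted p = 0.117) and over single transcripts (adjusted p = 0.138). H2-Eb1 is a class II histocompatibility gene with 50% of its TPM on listed transcripts. These had 21.17 and 22.38 TPM in the anti-CD71 libraries, against 41.77 and 72.8 TPM in the controls, also with no overlap. Their log2 change was -1.30 (limma adjusted p = 0.057 in this wider view). Both anti-CD71 libraries lay above both controls in 24.5% of genes and below both in 32.9%. Of the 6 other interferon gamma responsive genes in this view, 4 were highest in anti-CD71 replicate 1 (Batf2, Nos2, Psme1 and Zbp1), as were 14.3% of all genes. In replicate 2, 5 of the 6 were below both controls, as were 40.1% of all genes. The median log2 difference over the 6 was 0.43 in replicate 1 and -0.34 in replicate 2.

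**Figure D4:**
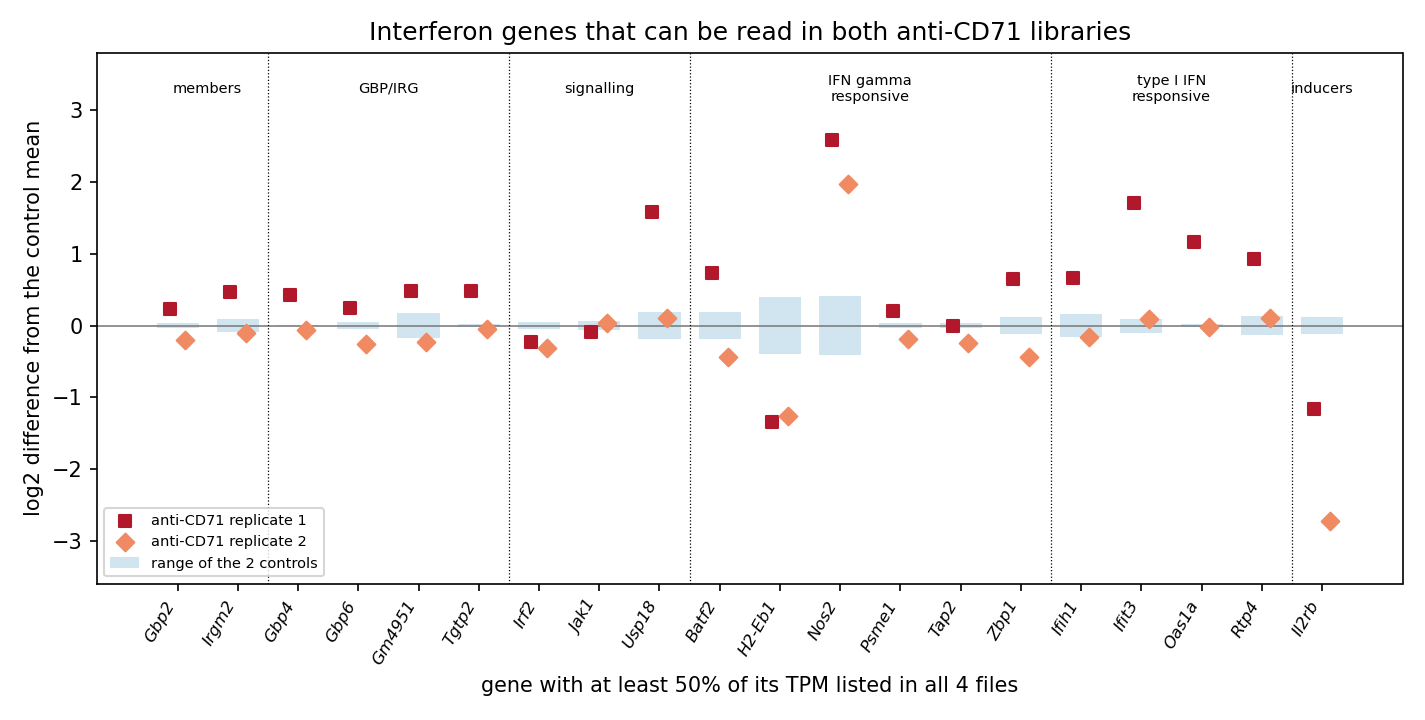
Log2 difference from the control mean (y axis) of the interferon genes with at least 50% of their TPM listed in all 4 files (x axis, grouped by list), with squares for anti-CD71 replicate 1, diamonds for anti-CD71 replicate 2 and shaded bars for the range of the 2 controls. All 6 GBP and IRG genes have the square above the bar and the diamond below it, and the 4 type I interferon genes have the square above the bar.

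The wider pathway was read in anti-CD71 replicate 2. With no filter on low values 0 genes of the whole table were called in either direction (1935 higher and 1466 lower at an unadjusted p under 0.05), so each call in the lists below ends under that setting. With the filter, 2.39% of all genes were called lower and 0.476% higher, and 14% were lower and 10.7% higher at an unadjusted p under 0.05; the counts in each list stand beside these shares. Of the other GBP and IRG genes, 17 were tested over the 3 complete libraries, and 15 of these had a log2 change below 0 (median -0.24). By limma 1 fell and 0 rose, with 7 and 0 at an unadjusted p under 0.05. The gene that fell, Gbp8, had 3.62 TPM in anti-CD71 replicate 2, against 8.44 and 10.98 TPM in the controls (log2 change -1.20, adjusted p = 0.0474). Gvin1, a gene for a giant interferon-inducible GTPase, had the next largest log2 change (-0.60), at a level near the filter. It had 0.65 TPM in anti-CD71 replicate 2, against 1.65 and 1.35 TPM in the controls, and passed the filter through the controls alone.

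In the receptor and signalling list, the median log2 change over 15 genes was -0.35. Irf8, a transcription factor of myeloid cells, had 31.1 TPM in anti-CD71 replicate 2, against 50.96 and 59 TPM in the controls (log2 change -0.80, limma adjusted p = 0.0444). Ptpn6, a phosphatase of blood cells that restrains JAK kinases, had 36.81 TPM in that library, against 62.08 and 74.78 TPM in the controls (-0.87, adjusted p = 0.0474). At an unadjusted p under 0.05 the list had 9 of 15 genes lower and 2 higher, where 14% and 10.7% of all genes were.

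In a list of genes linked to the induction of Ifng in lymphocytes, Il18bp included, the median log2 change over 13 tested genes was -0.36. Il2rb, a receptor subunit for interleukins 2 and 15, had 6 TPM in anti-CD71 replicate 2, against 25.72 and 27.16 TPM in the controls (log2 change -1.97, limma adjusted p = 0.00567). Il21r, the receptor for interleukin 21, had 6.27 TPM there, against 12.61 and 14.26 TPM in the controls (-0.99, adjusted p = 0.0348). Ifng itself, near 1 TPM and below the filter, was above both controls in the same library, as were 39.5% of genes tested over 3 libraries.

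Other interferon gamma responsive genes included 3 that fell and 1 that rose among 27 tested, 24 of which had a log2 change below 0 (median -0.34). Ccl5, a T cell chemokine gene, had 53.94 TPM in anti-CD71 replicate 2, against 91.53 and 100.39 TPM in the controls (log2 change -0.82, limma adjusted p = 0.029). B2m, the light chain of class I histocompatibility molecules, had 3929.73 TPM there, against 6035.04 and 5718.13 TPM in the controls (-0.58, adjusted p = 0.0242). Psmb9, of the immunoproteasome, also fell (-0.55, adjusted p = 0.0457), and Nos2 rose (1.54, adjusted p = 0.0288).

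In the list of genes that work with GBP and IRG proteins, 1 of 15 fell and 0 rose, and the median log2 change was 0.01. Nlrp3, the inflammasome sensor, had 5.85 TPM in anti-CD71 replicate 2, against 12.68 and 12.26 TPM in the controls (log2 change -0.98, limma adjusted p = 0.029). Ifi202b had the next largest value (0.45, adjusted p = 0.144). Of the 18 type I interferon responsive genes tested over 3 libraries, 0 rose and 0 fell by limma, with 1 and 2 at an unadjusted p under 0.05, and the median was 0.03. Ifit2 had the largest value there (0.55, adjusted p = 0.0898), followed by Bst2 (-0.35, adjusted p = 0.0738).

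**Figure D5:**
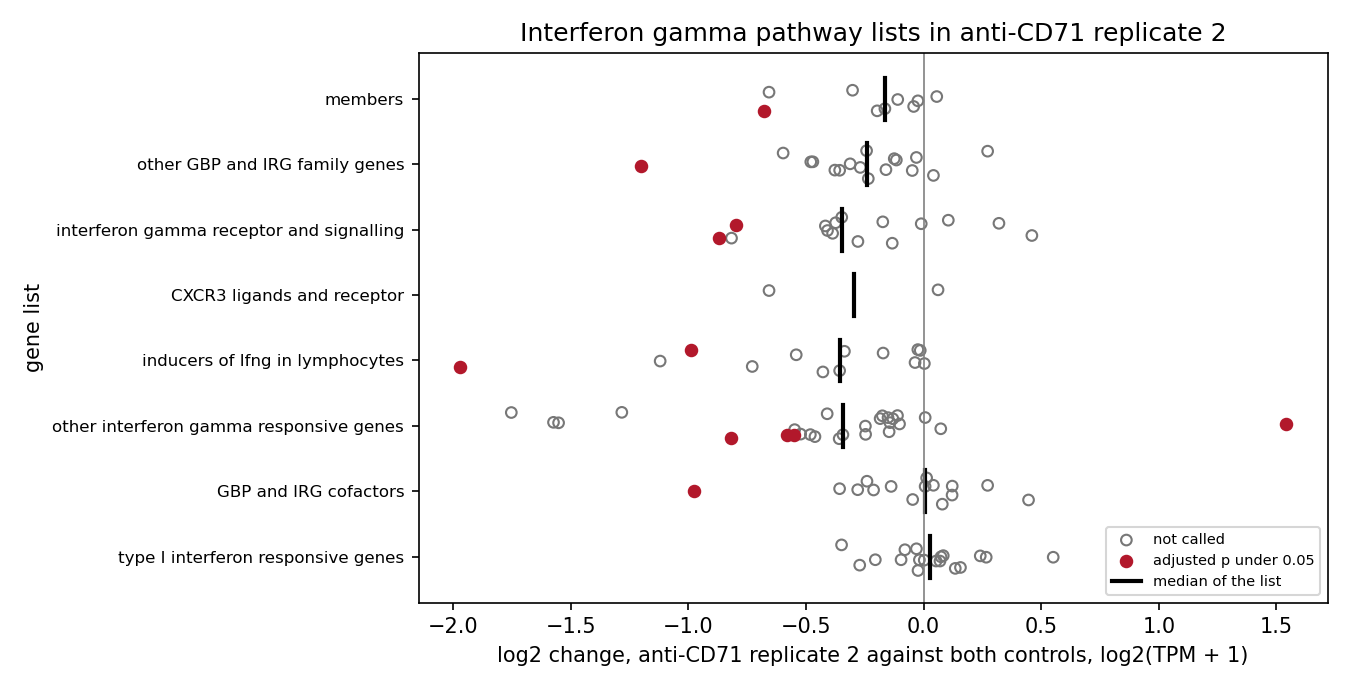
Log2 change in anti-CD71 replicate 2 over both controls (x axis) for each tested gene of the members and of the 7 other lists (y axis; Cxcl9 stands in both the member and the CXCR3 lists). Filled red points passed an adjusted p of 0.05, open points did not, and black lines are medians; these lie below 0 for the members (-0.16) and the signalling list (-0.35), and near 0 for the cofactors (0.01) and the type I interferon list (0.03).

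T cells and natural killer cells make Ifng, and their markers were lower in anti-CD71 tumours where they could be read. For genes with at least 50% of their TPM listed, both anti-CD71 libraries lay below both controls in all 4 natural killer and cytotoxic genes. The same held for all 3 T cell genes, and for 32.9% of all such genes. Gzmb was only just lower in anti-CD71 replicate 1, at 79.54 TPM, against 100.74 and 84.83 TPM in the controls. Ifng, near 1 TPM and below the filter, was above both controls in replicate 2, as were 39.5% of genes tested over 3 libraries. The GBP and IRG genes of the wider view were highest in replicate 1. The 10 natural killer and cytotoxic genes summed to 74.27 TPM in anti-CD71 replicate 2, against 297.69 and 291.24 TPM in the controls. All 9 that were tested lay below both controls there, Il2rb of the list above among them. The 10 T cell genes summed to 11.4 TPM in anti-CD71 replicate 2, against 25.3 and 28.1 TPM in the controls. All 9 that were tested lay below both controls there, as did 42.5% of genes tested over 3 libraries. No gene of either list was at 0 in anti-CD71 replicate 2 or in both controls. Ncr1, a natural killer receptor gene, had 5.1 and 2.52 TPM in the anti-CD71 libraries, against 9.53 and 11.54 TPM in the controls (limma adjusted p = 0.0554 over 4 libraries). Neutrophil and erythroid markers moved as well. The 9 neutrophil genes found summed to 510.04 TPM in anti-CD71 replicate 2, against 17.05 and 11.29 TPM in the controls, and listed S100a9 transcripts had 142.39 and 183.5 TPM in the anti-CD71 libraries, against 3.67 and 0 TPM in the controls. The 9 erythroid genes found summed to 1006.88 TPM in anti-CD71 replicate 2, against 3375.05 and 3748.39 TPM in the controls. All 5 that were tested lay below both controls, where 42.5% of genes tested over 3 libraries did. The part of these markers, and of the epidermis, hair and macrophage markers given above, in the values of the members and of Nos2 was not tested.

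Over the 3 complete libraries, the tested genes whose profile of log2(TPM + 1) minus the control mean lay nearest to that of Ifng were Abhd17b, Ajuba and Gfod2. Their Euclidean distances were 0.00101, 0.00905 and 0.0116. The nearest to Cxcl9 were Dqx1, Chd3 and the histocompatibility gene H2-T23, at 0.00874, 0.00879 and 0.00932. With 11982 candidates and 3 libraries, such near matches say nothing of shared control.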

How the data were processed

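The deposited values are TPM per RefSeq transcript, estimated by the authors on GRCm38.p6, per the submitters' processing notes. BGI extracted RNA with TRIZOL and prepared the libraries, per the labels' protocols. The aligner and quantifier were not given in the sources used here, and TPM keeps no read depth, so no counting interval is given.

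RefSeq symbols of the same build matched 58425 of 59881 transcripts, and TPM were summed to 17574 genes, including 1744 further copies of transcripts. Transcripts with no symbol held 1.421 to 1.552% of a complete library. The unfinished last line of the partial file was dropped. A gene entered the comparison of 4 libraries where its shared transcripts held at least 90% of its TPM in the complete libraries (50% in the wider view). Limma 3.58.1 in R 4.3.3 ran on log2(TPM + 1) with an intensity trend, for genes with at least 1 TPM in 2 libraries, and was tested on simulated data. Alternatives covered the pseudocount, filter, scaling, trend, transcript limit, left-out libraries and a replicate block. The members, lists and tests were chosen with earlier results of these data known. All members are named, as are called genes of each list (up to 4, by size of change) and otherwise the largest changes up to 2. Genes of the 4-library view were named after their values were seen. Python 3.11.15 with pandas 2.3.3 handled tables.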

Additional observations from a re-analysis of the deposited data

How the results depend on the processing

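Counts over all genes depended strongly on the settings. Over 4 libraries, 13 genes were called higher and 54 lower. With no filter the numbers were 1 and 0, with 1 TPM needed in 1 library 1 and 7, with no intensity trend 1 and 3, with any listed transcript 2 and 2, and with single transcripts 2 and 2. Leaving out 1 library gave 1 to 35 higher and 0 to 61 lower. The replicate numbers were not taken as pairs: deviations of same-numbered libraries correlated at -0.0055 across genes, and a replicate block gave 2 higher and 1 lower. The cause of these differences was not tested.

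Over 3 libraries, 57 genes were called higher and 286 lower. With no filter the numbers were 0 and 0 (1935 and 1466 at an unadjusted p under 0.05), and with no trend 13 and 22. With 1 TPM needed in 1 library 12 were lower, and with median scaling 94 were higher. Members called lower numbered 1, against 0 with no filter, with 1 TPM in 1 library and with no trend (2 at an unadjusted p under 0.05 in each), and 2 with median scaling, where Cxcl9 joined Gbp9. Directions reversed when 1 library was left out. Over 4 libraries Gbp2 ranged from -0.20 (without anti-CD71 replicate 1, and -0.02 without control replicate 2) to 0.23, and Irgm2 from -0.11 (without anti-CD71 replicate 1) to 0.47. Over 3 libraries Gbp3 ranged from -0.11 to 0.0257 and Irgm1 from -0.13 to 0.0792, both reversed without control replicate 1, and Gbp7 from -0.0485 (without control replicate 2) to 0.16. Depth is unknown, so the precision of Ifng, near 1 TPM, cannot be given.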
